A study of Mus musculus with 48 samples.

Results

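The 7 genes described here encode fatty acid desaturases and elongases: Fads1, Fads2, Fads3, Elovl1, Elovl2, Elovl5 and Scd2. They were chosen by symbol, with earlier results of these data known. All 7 matched 1 row each of the 55414 genes in a table of liver RNA-seq counts. The counts came from 48 FCG mice on the C57BL/6 background, 6 per group in 8 groups, and every mouse gave a single library. In FCG mice the testis-determining gene Sry is deleted from the Y chromosome and carried as a transgene on an autosome, so that ovaries (Ov) or testes (Te) occur with either XX or XY chromosomes. The genotypes were XX (XX Ov), XY- (XY Ov), XX;SryTg (XX Te) and XY-;SryTg (XY Te), and each was studied with its gonads in place (Intact) or after gonadectomy at 75 days of age (GDX). All mice, with no other diet for comparison, began a high-fat diet (HFD, 60% of calories from fat) at 15 to 17 weeks of age, and the Intact mice ate it for 11 weeks and the GDX mice for 15 weeks. Because gonads, weeks of HFD and age at collection changed together, a difference between GDX and Intact mice cannot be told apart from one of diet duration or age.

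Mammals do not make the essential fatty acids linoleic and alpha-linolenic acid, but the liver converts them into longer and more unsaturated products such as arachidonic acid and docosahexaenoic acid (DHA). Among the steps of this route, FADS2 introduces the first double bond and ELOVL5 lengthens the chain. FADS1 introduces a further double bond, and ELOVL2 lengthens the product again. Peroxisomes shorten the longest intermediates to DHA in the last step. Not every gene of the list serves that route. FADS3 is best known for desaturating sphingoid bases, ELOVL1 lengthens saturated acyl chains destined for sphingolipids, and SCD2 is a stearoyl-CoA desaturase that makes monounsaturated fatty acids. In liver, transcription of desaturases and elongases is classically linked to the sterol regulatory element-binding proteins (SREBPs), the liver X receptors (LXRs) and PPARα.

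Reads on genes ranged from 13071874 to 20045141 per mouse, and 3 reads, used as a detection floor for counting error alone, corresponded to 0.150 to 0.230 CPM (read counts scaled to a common library size). Each XX mouse had more Xist than each XY mouse and each XY mouse had more of Ddx3y, Kdm5d, Uty and Eif2s3y than each XX mouse, although XX Te Intact mouse 4 had the most Y-linked reads among XX mice (Ddx3y at 4.20 CPM, against at least 44.3 CPM in XY mice). The hepatocyte markers Alb, Apoa1, Ttr, Cps1, Hnf4a and Cyp2e1 were detected in all 48 mice. Reads outside genes made up 3.47% to 6.20% of the Intact and 8.52% to 11.3% of the GDX libraries, so that GDX also moved with library make-up. XY Te Intact mice 1 to 4 stood apart, with 11.7% to 16.5% unmapped reads (6.99% to 11.04% in the other 44 mice) and 16.2% to 18.9% multimapping reads (8.59% to 14.4%). Counts without these 4 libraries, an alternative chosen after seeing the data, are given beside the results as the fit of 44 mice, in which 16414 genes were tested. That fit keeps only mice 5 and 6 of the XY Te Intact group, so values involving this group rest there on few mice. The levels below are CPM after trimmed mean of M-values (TMM) scaling, and in whole liver fewer cells of a type and less RNA per cell cannot be told apart.

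The 4 genes of the conversion route were abundant and the other 3 were not. Across the 48 mice the median level was 848 CPM for Fads2 (327 to 1957), 766 CPM for Elovl5 (299 to 1569), 665 CPM for Fads1 (326 to 1289) and 609 CPM for Elovl2 (310 to 1203). The median was 26.3 CPM for Elovl1 (10.4 to 36.9), 14.0 CPM for Fads3 (4.22 to 64.9) and 9.29 CPM for Scd2 (3.95 to 26.2). Per kilobase of exon, the median level was 562 for Fads2, 218 for Elovl5, 192 for Fads1 and 158 CPM per kb for Elovl2, against 9.64 for Elovl1, 4.27 for Fads3 and 1.704 CPM per kb for Scd2. The lengths came from an older annotation (GENCODE M1 on NCBIM37), whose Fads2 model is only 1508 bases long, so that the value of Fads2 per kb may be too high. Fads1, Fads2 and Fads3 are neighbours on chromosome 19, in the order Fads3, Fads2, Fads1 with the genes Gm29917 and Gm50359 between them, and reads of overlapping transcripts could not be separated because the strand setting is not given in the sources used here. Scd2 is also on chromosome 19, Elovl1 on chromosome 4, Elovl2 on chromosome 13 and Elovl5 on chromosome 9.

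The groups did not order the genes alike. For Fads1, Fads2 and Fads3 the 4 highest group means were all XX groups, led by XX Ov GDX. Mean Fads2 was 1549 ± 250.6 CPM in XX Ov GDX, 1149 ± 269 in XX Te Intact, 1103 ± 279 in XX Te GDX and 1005 ± 339 in XX Ov Intact mice, followed by 780 ± 92.4 in XY Ov GDX, 728 ± 226 in XY Te GDX, 676 ± 341 in XY Te Intact and 664 ± 294 CPM in XY Ov Intact mice (SD, n = 6 in each). Elovl5 and Elovl2 were highest in XX Te Intact mice, at 1278 ± 340 and 839 ± 246 CPM (SD, n = 6). Elovl5 was lowest in XY Te GDX mice, at 463 ± 54.0 CPM, and Elovl2 in XY Ov GDX mice, at 550 ± 57.1 CPM. Scd2 and Elovl1 were highest in XY Te GDX mice, at 17.3 ± 5.70 and 31.7 ± 4.04 CPM, and lowest in XX Ov Intact mice, at 6.53 ± 1.57 and 18.7 ± 6.03 CPM. Of the 49 pairs of neighbours in these orders, 0 passed an adjusted p of 0.05 (exact two-sided permutation test, 6 against 6 mice, smallest possible p of 0.00216, Benjamini-Hochberg over the 49) and 2 passed unadjusted. The gap exceeded the pooled SD for 4 pairs, namely Scd2 and Fads3 in XY Ov GDX over XY Ov Intact (by 1.76 and 1.17 pooled SD) and Fads2 and Fads3 in XX Ov GDX over XX Te Intact (by 1.54 and 1.06). Since the order was set by the same means, neighbours are the closest pairs by construction.

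**Figure D1:**
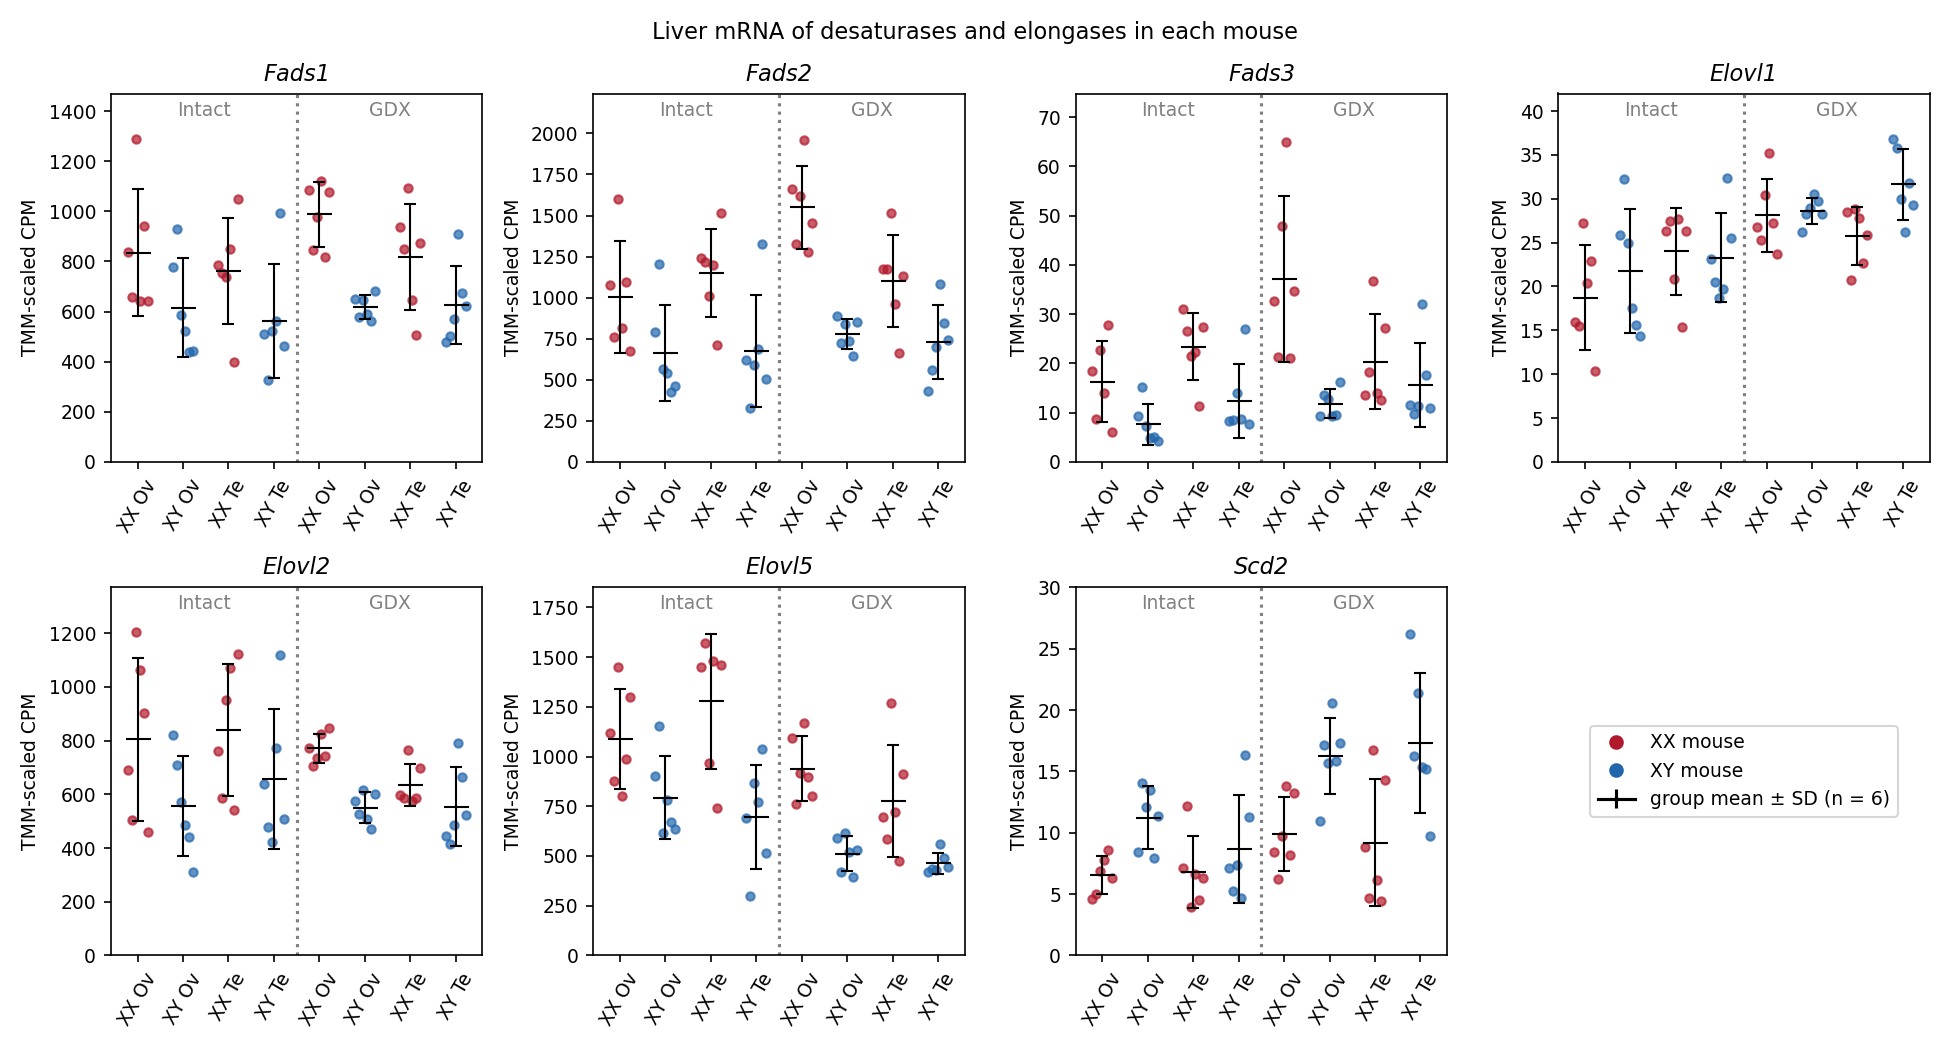
TMM-scaled CPM of the 7 genes in each of the 48 mice (points, XX in red and XY in blue) with the mean ± SD of each group of 6 (black), Intact groups left and GDX groups right of the dotted line. For Fads1, Fads2 and Fads3 the 4 highest group means are XX groups, and for Scd2 and Elovl1 the highest mean is that of XY Te GDX mice.

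RefSeq promoter windows of 300 bases (250 before and 50 after a start site, GRCm38.p6, not the build used for counting) were at hand for 5 of the 7 genes and were searched on both strands for the CCAAT box, because the nuclear factor Y (NF-Y) subunits were among the regulators examined, and for 4 other motifs. The windows of 3 genes whose levels differed most with sex chromosomes are shown, with matches in capitals (CCAAT or its reverse ATTGG, and the E-box CACGTG).
Fads2, chr19:10101454-10101753, minus strand: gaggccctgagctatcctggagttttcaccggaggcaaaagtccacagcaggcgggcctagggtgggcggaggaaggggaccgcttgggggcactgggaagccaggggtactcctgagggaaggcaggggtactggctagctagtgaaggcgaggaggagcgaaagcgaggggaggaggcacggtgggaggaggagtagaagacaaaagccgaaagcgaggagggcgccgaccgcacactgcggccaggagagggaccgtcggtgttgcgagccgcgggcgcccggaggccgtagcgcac
Fads3, chr19:10041298-10041597, plus strand: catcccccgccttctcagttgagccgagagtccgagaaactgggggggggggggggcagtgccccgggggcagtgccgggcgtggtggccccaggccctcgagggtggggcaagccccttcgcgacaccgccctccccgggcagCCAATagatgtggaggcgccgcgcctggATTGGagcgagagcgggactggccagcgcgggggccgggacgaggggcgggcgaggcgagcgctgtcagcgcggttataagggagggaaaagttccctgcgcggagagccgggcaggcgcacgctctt
Elovl5, chr9:77917115-77917414, plus strand: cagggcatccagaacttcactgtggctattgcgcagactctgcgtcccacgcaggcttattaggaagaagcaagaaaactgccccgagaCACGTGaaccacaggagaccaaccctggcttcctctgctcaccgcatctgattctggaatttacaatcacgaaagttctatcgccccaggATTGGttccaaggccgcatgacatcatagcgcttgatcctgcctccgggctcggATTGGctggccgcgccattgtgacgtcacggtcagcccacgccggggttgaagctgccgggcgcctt

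The Fads3 window held the CCAAT letters at -106 and their reverse at -78 from the start site, and the Elovl5 window held the reverse at -71 and -17 and CACGTG at -161. A CCAAT match was also found at -35 in 1 of the Elovl1 windows. The Fads2 window and both Elovl2 windows held none of the motifs searched. CCAAT or its reverse occurs in 37.4% and CACGTG in 7.15% of all RefSeq windows of this length. The SREBP-type element TCACNCCAC (1.24% of windows) and direct repeats of the nuclear receptor half-site AGGTCA with a spacer of 1 base (0.0396%) or 4 bases (0.0152%) were in none of the 7 windows of these genes. These matches describe letters in a window and not bound sites.

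The comparison of XX with XY mice (the chromosomal effect) asked what the sex chromosomes change with gonads and gonadectomy balanced. All 4 genes of the conversion route and Fads3 were higher in XX mice, by 1.31-fold for Elovl2 to 2.02-fold for Fads3, and Scd2 was 1.61-fold lower. With Elovl1 the only one that did not pass, 6 of the 7 had an adjusted p under 0.05 (quasi-likelihood test in edgeR, Benjamini-Hochberg over 15414 tested genes). The same was true of 36.7% of the tested genes as a whole, with 21.9% higher and 14.8% lower in XX mice. All 6 calls stood in the 48 fits that each omitted 1 mouse. With a fold above 1.5 also required, Fads2, Fads3, Elovl5 and Scd2 passed. That held for 11.4% of the tested genes, with 2.48% higher (Fads2, Fads3 and Elovl5 among them) and 8.91% lower in XX mice (Scd2 among them). Without the 4 XY Te Intact libraries named above, 6 of 7 genes passed, with Elovl1 at -0.24 (adjusted p = 0.0387, edgeR) in place of Elovl2 at 0.27 (adjusted p = 0.0806, edgeR), and over all genes 2230 were higher and 2634 lower. When libraries were scaled by their totals instead of by TMM, 4290 genes passed, 1207 higher and 3083 lower in XX mice (3382 and 2275 with TMM), and 5 of the 7 genes kept their call and their direction. The call lost was that of Elovl2, whose log2 fold change became 0.29 with an adjusted p of 0.0884 in edgeR's test.

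Fads2, the first desaturase of the route, had 666 to 1957 CPM in XX mice, with a median of 1187, and 327 to 1325 CPM in XY mice, with a median of 694. The ranges overlapped, but 22 of 24 XX mice lay above the XY median and 2 of 24 XY mice above the XX median. The difference was 0.74 on the log2 scale (SE 0.12; adjusted p = 5.21e-06, edgeR's quasi-likelihood test). Elovl5, which lengthens the first desaturation product, had 473 to 1569 CPM in XX mice, with a median of 941, and 299 to 1155 CPM in XY mice, with a median of 575. Here 23 of 24 XX mice exceeded the XY median, and the difference was also 0.74 (SE 0.11; adjusted p = 3.52e-07, edgeR). Fads1, the second desaturase, had 400.2 to 1289 CPM in XX mice, with a median of 848, and 326 to 994 CPM in XY mice, with a median of 574, a log2 difference of 0.49 (SE 0.11; adjusted p = 0.000332, edgeR). For Fads1, 22 of 24 XX mice lay above the XY median. Elovl2, the second elongase, had 461 to 1203 CPM in XX mice, with a median of 739, and 310 to 1121 CPM in XY mice, with a median of 525, a log2 difference of 0.39 (SE 0.11; adjusted p = 0.00414, edgeR).

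The 3 genes outside the route differed from each other. Fads3 had 6.16 to 64.9 CPM in XX mice, with a median of 21.96, and 4.22 to 32.1 CPM in XY mice, with a median of 9.61. The difference was 1.01 on the log2 scale (SE 0.18; adjusted p = 1.35e-05, edgeR), and 22 of 24 XX mice lay above the XY median. Scd2 ran the other way, with 3.95 to 16.7 CPM in XX mice, median 7.04, and 4.67 to 26.2 CPM in XY mice, median 13.8, a log2 fold change of -0.69 (SE 0.15; adjusted p = 0.000187, edgeR). Of the XY mice, 22 of 24 lay above the XX median of Scd2. Elovl1 had 10.4 to 35.2 CPM in XX and 14.3 to 36.9 CPM in XY mice, with a log2 fold change of -0.12 (95% interval -0.30 to 0.05; adjusted p = 0.273, edgeR), and with 1 surrogate variable in the model it passed at -0.15 (adjusted p = 0.0116, edgeR).

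**Figure D2:**
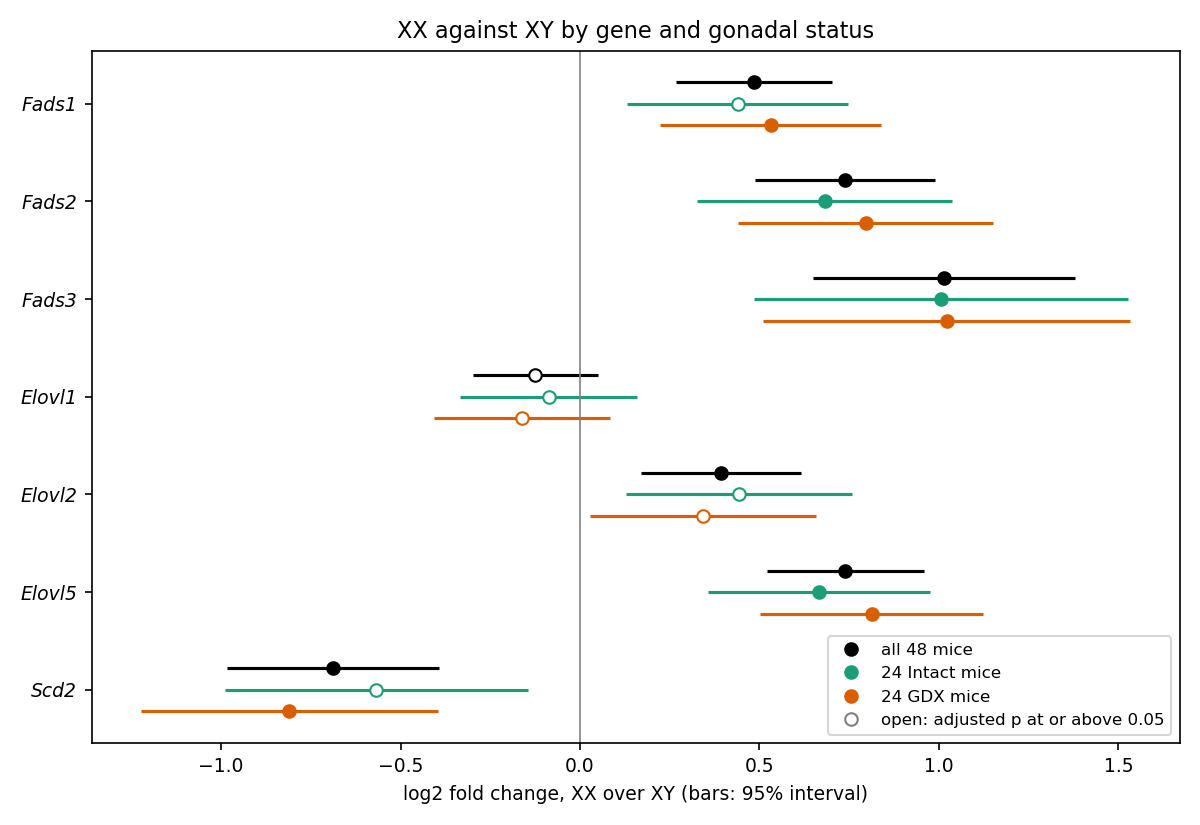
Log2 fold change of XX over XY (points) with its 95% interval (bars) for each gene, in all 48 mice, in the 24 Intact and in the 24 GDX mice. Filled points have an adjusted p under 0.05. The values lie above 0 for Fads1, Fads2, Fads3, Elovl2 and Elovl5 and below 0 for Scd2 and Elovl1 in all 3 comparisons.

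Among Intact mice, 3 of the 7 genes passed, all higher in XX mice (10.7% of all tested genes, 4.27% higher and 6.42% lower), namely Fads2 at 0.68 (SE 0.18), Fads3 at 1.01 (SE 0.26) and Elovl5 at 0.67 (SE 0.15), with adjusted p of 0.00672, 0.00617 and 0.00210 (edgeR). Fads1 at 0.44 (adjusted p = 0.0558), Elovl2 at 0.44 (adjusted p = 0.0601) and Scd2 at -0.57 (adjusted p = 0.0753, all edgeR) did not, although all 3 passed with DESeq2. When only the 4 Intact groups were fitted, 2 of 7 passed and Fads2 at 0.65 did not (adjusted p = 0.0808, edgeR).

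Library make-up moved with this comparison. The 4 libraries that stood apart are all XY, and mouse 2 among them had the lowest Fads1, Fads2 and Elovl5 of all 48 mice (326, 327 and 299 CPM). Without these 4 libraries, Fads2 at 0.46 and Fads3 at 0.75 did not pass (adjusted p = 0.196 and 0.162, edgeR), Elovl5 at 0.59 did (adjusted p = 0.0298, edgeR), and Scd2 passed at -0.90 (adjusted p = 0.00668, edgeR). That fit kept only mice 5 and 6 of XY Te Intact. Mouse 5 had the highest Fads2 and Fads3 of its group of 6 (1325 and 27.1 CPM, next 687 and 14.1). In that fit 271 genes were higher and 1063 lower in XX Intact mice, against 658 and 990 in all 48 mice. Without mouse 2 alone 3 genes passed. Leaving out libraries also leaves out mice, so these fits cannot separate library make-up from differences between mice. The part of library make-up in these differences was not tested.

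Among GDX mice, 5 of 7 passed (34.3% of all tested genes, 19.5% higher and 14.8% lower in XX mice): Fads1 at 0.53, Fads2 at 0.80, Fads3 at 1.02 and Elovl5 at 0.81 were higher and Scd2 at -0.81 was lower in XX mice. Elovl2 was at 0.34 (adjusted p = 0.0850, edgeR). With library totals, Fads1 in GDX mice was at 0.36 and did not pass (adjusted p = 0.122, edgeR), while 787 genes were higher and 3411 lower in XX GDX mice, against 3001 and 2287 with TMM. The 5 calls in GDX mice also stood in the fit without the 4 XY Te Intact libraries, where 1778 genes were higher and 2966 lower. The test of the difference itself, chromosomal effect in GDX minus Intact mice, passed for 0 of 7 genes (2.12% of all tested genes), with 0 of 7 at an unadjusted p under 0.05 and 0 of 7 by DESeq2. Its 95% interval was -0.34 to 0.53 for Fads1, -0.39 to 0.61 for Fads2, -0.72 to 0.75 for Fads3, -0.54 to 0.34 for Elovl2, -0.29 to 0.58 for Elovl5 and -0.83 to 0.35 for Scd2, so that sizeable differences in either direction remain possible.

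The 2 sets of mice separated most clearly among GDX mice born with ovaries. There, Fads2 had 1281 to 1957 CPM (median 1534) in XX and 646 to 887 CPM (median 786) in XY mice, and Fads3 had 21.01 to 64.9 CPM (median 33.6) in XX and 9.25 to 16.3 CPM (median 11.2) in XY mice. Fads1 had 819 to 1123 CPM in XX and 564 to 680.5 CPM in XY mice, Elovl2 707 to 848 and 472 to 616 CPM, and Elovl5 761 to 1170.0 and 395 to 617 CPM. All 6 XX mice thus lay above all 6 XY mice for 5 of the 7 genes, where the same held for 10.4% of all tested genes (19.1% in either direction). In the other 3 pairs of groups none of the 7 genes separated completely, where 4.28% of tested genes did so in either direction among Ov Intact, 0.506% among Te Intact and 13.9% among Te GDX mice.

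Markers of other liver cells were examined for the chromosomal effect as well. The background for such counts was 36.7% of the genes in the fit, 14.8% being lower and 21.9% higher with XX chromosomes. The stellate cell, endothelial and cholangiocyte counts lie near this background and do not single out these cell types. Of the Kupffer cell and macrophage markers, 6 of 8 were lower and Gpnmb was higher in XX mice, and their summed level was 121 to 552 CPM in XX and 234 to 981 CPM in XY mice. All 3 tested neutrophil markers, with a sum of 0.0787 to 28.4 CPM in XX and 1.14 to 781 CPM in XY mice, 4 of 5 lymphocyte markers (11.2 to 46.2 and 19.5 to 309 CPM) and all 4 cell cycle genes (3.61 to 16.7 and 6.39 to 44.3 CPM) were also lower in XX mice. The lymphocyte sum, here and below, is mostly Ptprc (median 25.5 CPM), while Cd3e, Cd79a, Ms4a1 and Nkg7 had medians of 0.446 to 1.16 CPM. Of the endothelial markers, 1 of 5 (Pecam1) was lower (120.2 to 269 CPM in XX and 146 to 319.6 CPM in XY mice). Of the stellate cell markers 2 of 6 (158 to 589.9 and 211 to 411 CPM), of the cholangiocyte markers 2 of 5 (17.8 to 142 and 9.66 to 43.2 CPM) and of the adipocyte markers the single tested one, Cidec (whole list 4.80 to 98.3 and 0.998 to 27.1 CPM), were higher in XX mice. Adipoq, Plin1 and Lep had at most 2 reads in any mouse. The adipocyte sum, here and below, is thus nearly all Cidec, and adipocyte content cannot be read from it. The cholangiocyte sum is mostly Spp1 (median 27.7 CPM), the other 4 having medians of 0.407 to 2.72 CPM. None of the 6 hepatocyte markers passed (63816 to 146110 CPM in XX and 73921 to 144489 CPM in XY mice). Without the 4 XY Te Intact libraries, none of the stellate cell markers, 2 of 5 endothelial markers and 1 hepatocyte marker (higher in XX mice) passed, and the counts of macrophage, neutrophil, lymphocyte and cell cycle markers were as before. The part of these cells in the differences of Scd2 and of the other 6 genes was not tested.

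Genes that work beside the desaturases and elongases were counted from lists. The share of all tested genes that passed was 36.7%, with 21.9% higher and 14.8% lower in XX mice. All 8 genes counted for peroxisomal chain shortening were higher in XX mice, with a median log2 fold change of 0.37 against 0.05 for all tested genes. The largest were Acaa1b, a peroxisomal thiolase, at 0.62, Abcd3, a peroxisomal acyl-CoA importer, at 0.46, Scp2, a thiolase and sterol carrier, at 0.45, and Hsd17b4, which carries hydratase and dehydrogenase steps of peroxisomal beta-oxidation, at 0.41. Of 9 tested acyl-CoA synthetases and acyltransferases, 7 were higher and none lower, led by Lpcat3 at 0.44, which places polyunsaturated chains into phospholipids, Acsl1 at 0.42, Agpat3 at 0.38 and Slc27a2 at 0.34. Of the 10 partners of the elongation cycle and electron transfer, 6 were higher, among them the reductase Cyb5r3 at 0.38 and cytochrome b5 type B (Cyb5b) at 0.36, and 2 were lower, the dehydratase family gene Hacd4 at -0.73 and the reductase gene Cyb5r1 at -0.45. With library totals in place of TMM, 5 of 8 peroxisomal genes, 5 of 9 synthetases and acyltransferases and 4 of 10 partners were higher in XX mice, with none, none and 2 lower, while the median of all genes moved to -0.05. With 44 mice 7 of 8, 5 of 9 and 6 of 10 were higher.

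Paralogs and regulators were mixed, beside the 36.7% of all tested genes that passed (21.9% higher and 14.8% lower in XX mice). Of the 7 tested other elongases and desaturases, Elovl3 at 0.73, Elovl7 at 1.94 and Fads6 at 0.21 were higher and Degs2 at -1.15 was lower in XX mice. Elovl7 (medians of 0.641 in XX and 0.247 CPM in XY mice) and Degs2 (0.164 and 0.319 CPM) lay near the floor, so their folds are imprecise. With library totals, Fads6 did not pass and the list counted 2 genes higher and 2 lower. Scd1, the main stearoyl-CoA desaturase of liver, had a median of 7299 CPM (2048 to 15079) in XX and 4380 CPM (1445 to 16881) in XY mice and did not pass. Of the 14 regulators 5 were higher and 3 lower. Insig2, which retains SREBPs in the endoplasmic reticulum, was at 0.76 (SE 0.10; adjusted p = 1.60e-08, edgeR), Ppara was at 0.39, the LXRα gene Nr1h3 was at -0.52 and the NF-Y subunit gene Nfya was at -0.32. With library totals 2 regulators were higher and 3 lower, without the 4 XY Te Intact libraries 3 and 3, and there Fads6 at 0.09 did not pass. Srebf1, the regulator best known for lipogenic genes, did not pass.

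**Figure D3:**
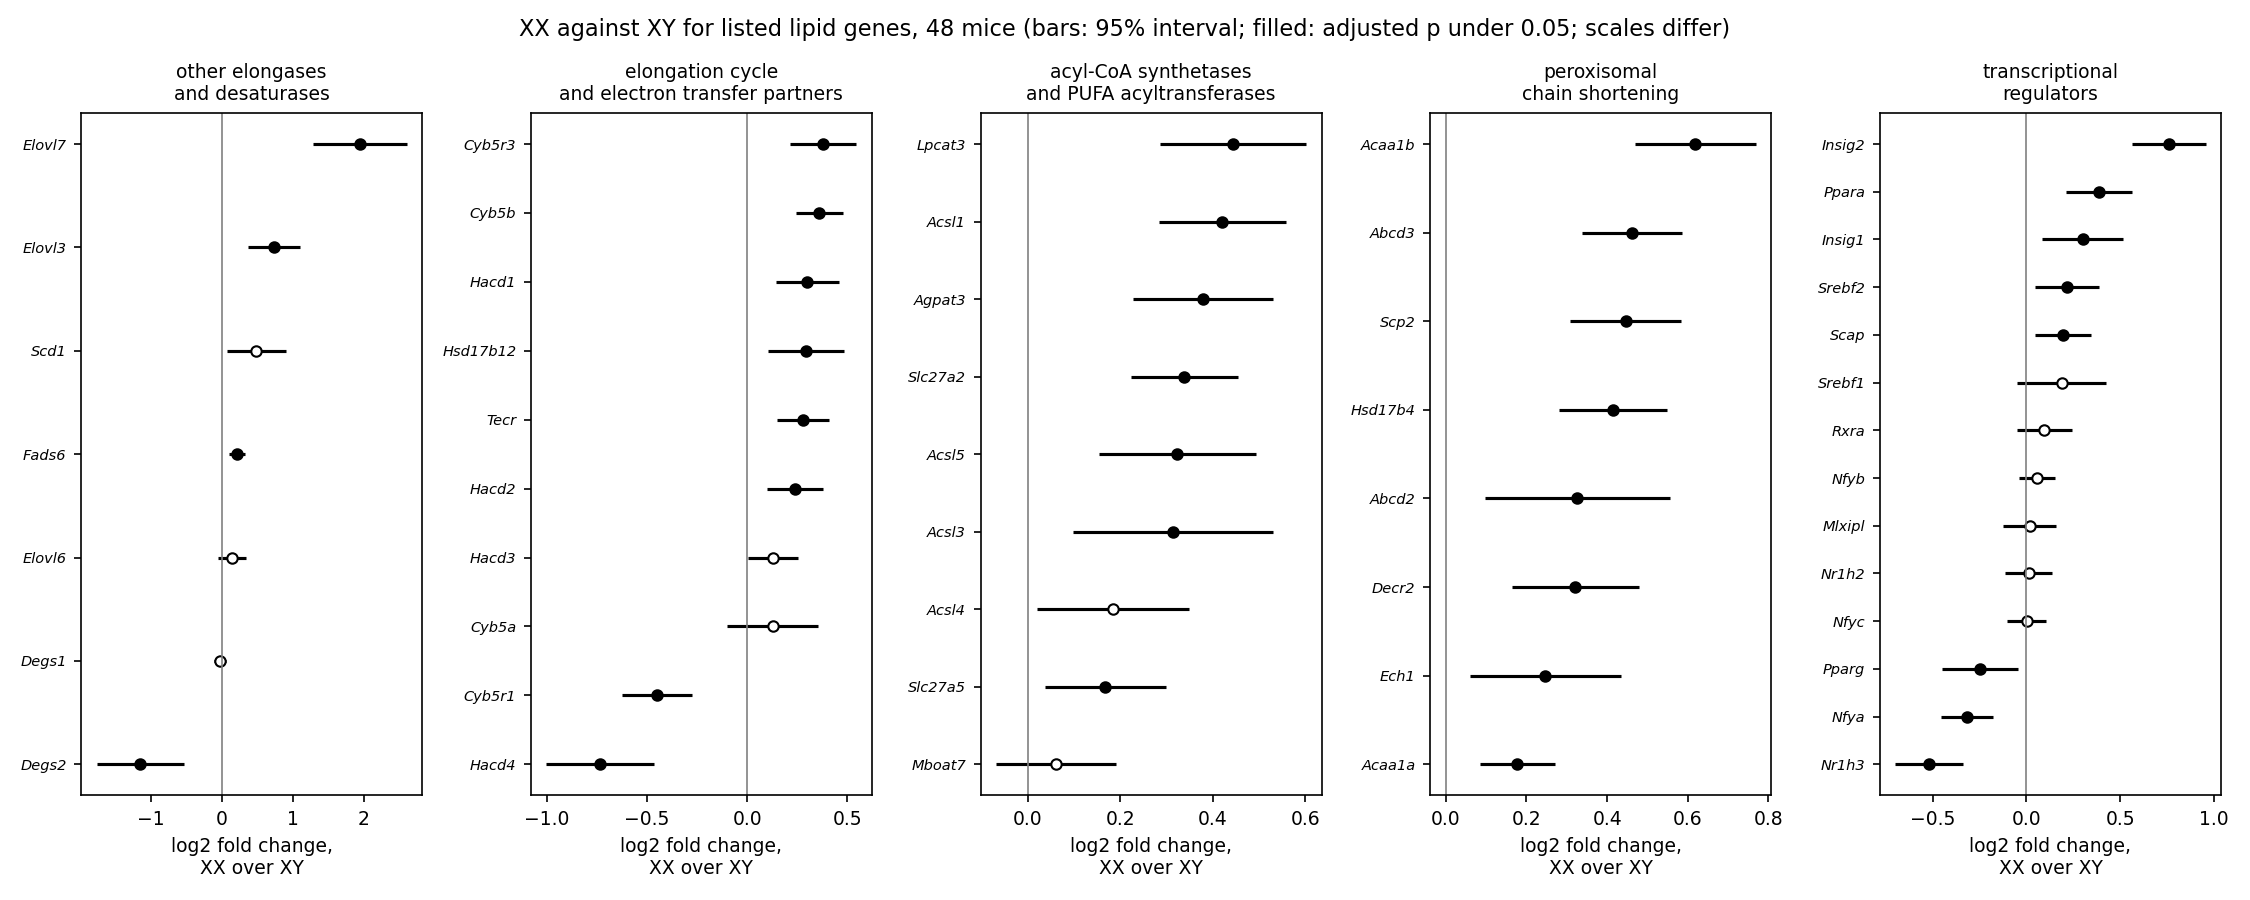
Log2 fold change of XX over XY mice (points, filled where the adjusted p is under 0.05) with 95% intervals for the tested genes of the 5 lists, each panel with its own scale. All 8 peroxisomal genes lie above 0, while Hacd4 and Cyb5r1 in the second panel and Nr1h3, Nfya and Pparg in the last lie below it with filled points.

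The gonadal effect set intact mice with ovaries against those with testes. None of the 7 genes passed, where 25.3% of all tested genes did (1 of 7, Fads3, at an unadjusted p under 0.05 and 0 of 7 by DESeq2). Fads3 had 4.22 to 27.7 CPM (median 8.97) with ovaries and 7.68 to 31.0 CPM (median 17.8) with testes, ranges that overlapped widely, and its log2 fold change was -0.61 (SE 0.26; adjusted p = 0.0723, edgeR). Leaving out XX Ov Intact mouse 3 or 5, XY Ov Intact mouse 2 or XX Te Intact mouse 5 made Fads3 pass, the values across all 48 omissions being -0.77 to -0.41. The 95% intervals were -0.18 to 0.44 for Fads1, -0.46 to 0.24 for Fads2, -0.46 to 0.16 for Elovl2, -0.33 to 0.29 for Elovl5, -0.47 to 0.02 for Elovl1 and -0.27 to 0.57 for Scd2. Without the 4 XY Te Intact libraries, 2 of 7 genes passed, both lower with ovaries, Fads3 at -0.85 (adjusted p = 0.0233, edgeR) and Elovl1 at -0.38 (adjusted p = 0.0327, edgeR), where 3425 genes were higher and 2569 lower. Only mice 5 and 6 were then left in XY Te Intact, and mouse 5 had the highest Fads3 and Elovl1 of that group (27.1 and 32.3 CPM). The gonadal effect did not differ detectably between XX and XY Intact mice for any of the 7 genes, or for any of the 15414 tested genes (edgeR's quasi-likelihood test; 989 genes had an unadjusted p under 0.05, none of the 7 among them, and 2 genes passed with DESeq2).

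Lists of related genes were counted for the gonadal effect too. Of all tested genes 25.3% passed, so counts near this share do not set a list apart. Elovl3, an elongase of saturated and monounsaturated chains, had 0.730 to 11.2 CPM with ovaries and 57.2 to 186 CPM with testes, with no overlap of the groups (log2 fold change -4.58, SE 0.28; adjusted p = 4.65e-17, edgeR). Fads6 was at -0.26, and the other 5 tested paralogs did not pass. Of the 10 elongation and electron transfer partners, 3 were higher with ovaries, among them Hacd4 at 0.66 and Hacd1 at 0.35, and Cyb5r3 at -0.43 and Cyb5b at -0.36 were lower. Of the 9 synthetases and acyltransferases, 3 were lower with ovaries (Acsl1 at -0.68, Agpat3 at -0.35 and Slc27a2 at -0.32) and none higher. Of the 8 peroxisomal genes, Scp2 at -0.73, Acaa1b at -0.39 and Hsd17b4 at -0.38 were lower with ovaries, and the transporter gene Abcd2 was higher at 0.73. Among the 14 regulators Insig2 at -0.72, Rxra at -0.33 and Mlxipl at -0.28 were lower and Nr1h3 at 0.53 was higher with ovaries. Of the named genes, in a fit of the 4 Intact groups alone, Fads6, Cyb5r3, Agpat3, Rxra and Mlxipl did not pass. Without the 4 XY Te Intact libraries Mlxipl did not pass, and 5 of 10 partners were higher and 2 lower, 5 of 9 synthetases and acyltransferases lower, and 3 of 8 peroxisomal genes higher and 3 lower.

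Cell markers were counted for the gonadal effect too, where 25.3% of all tested genes passed. With ovaries, 4 of 5 lymphocyte markers were higher (median log2 fold change 0.91; summed level 15.5 to 148 CPM in Ov Intact and 11.4 to 81.6 CPM in Te Intact mice), as were 4 of 8 macrophage markers (median 0.45; 236 to 763 and 179 to 552 CPM), 1 of 6 stellate cell markers (239 to 466 and 194 to 395 CPM), 1 of 5 endothelial markers (161 to 219 and 131 to 237 CPM) and 1 of 4 cell cycle genes (7.70 to 29.2 and 6.38 to 27.8 CPM). The single tested adipocyte marker, Cidec, was lower at -1.92 (whole list 2.73 to 20.8 and 6.20 to 98.3 CPM), as were 1 of 5 cholangiocyte markers (11.7 to 54.7 and 9.66 to 126 CPM) and 1 of 6 hepatocyte markers (73921 to 146110 and 63816 to 144489 CPM). None of the 3 tested neutrophil markers passed (1.66 to 781 and 1.52 to 116 CPM). With 44 mice 3 lymphocyte, 2 macrophage and 0 cell cycle markers were higher and 2 hepatocyte markers lower. Their part in the gonadal values above was not tested.

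After GDX no difference between former ovary and testis bearers passed for the 7 genes (0.0908% of all tested genes passed; 0 of 7 at an unadjusted p under 0.05 and 0 of 7 by DESeq2). The 95% intervals ran from -0.18 to 0.43 for Fads1, from -0.06 to 0.65 for Fads2, from -0.28 to 0.74 for Fads3, from -0.18 to 0.45 for Elovl2 and from -0.10 to 0.52 for Elovl5.

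The ovariectomy effect compared Ov GDX with Ov Intact mice. Here 5 of the 7 genes passed, 4 higher and 1 lower after GDX, where 69.4% of all tested genes did (36% higher and 33.4% lower). With a fold above 1.5 also required, 1 of the 7, Fads3, passed (38.9% of all tested genes, 17.6% higher and 21.3% lower). Fads3 had 9.25 to 64.9 CPM (median 18.7) after ovariectomy and 4.22 to 27.7 CPM (median 8.97) in Intact mice, a log2 fold change of 0.90 (SE 0.26; adjusted p = 0.00195, edgeR). All 12 GDX mice lay above the Intact median of Fads3. Elovl1 had 23.7 to 35.2 CPM (median 28.2) and 10.4 to 32.3 CPM (median 19.01), a rise of 0.49 (SE 0.12; adjusted p = 0.000556, edgeR), and again all 12 GDX mice lay above the Intact median. Scd2 had 6.19 to 20.5 CPM (median 13.5) and 4.59 to 14.1 CPM (median 8.18), a rise of 0.57 (SE 0.21; adjusted p = 0.0144, edgeR). Fads2 rose by 0.43 (SE 0.18; adjusted p = 0.0290, edgeR), from a median of 774 to one of 1084 CPM, a call lost without XX Ov Intact mouse 2, XY Ov Intact mouse 5 or XX Ov GDX mouse 4. Elovl5 fell by 0.42 (SE 0.15; adjusted p = 0.0136, edgeR), from 615 to 1451 CPM (median 889) in Intact to 395 to 1170.0 CPM (median 689) in GDX mice. Fads1 at 0.12 and Elovl2 at -0.04 did not pass.

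These calls moved with the model. With 1 surrogate variable in the model, Fads2 at 0.09, Fads3 at 0.40 and Scd2 at 0.19 no longer passed (adjusted p of 0.653, 0.130 and 0.455, edgeR), whereas Elovl2 passed at -0.38 (adjusted p = 0.00438, edgeR). With library totals the median of all genes moved from 0.06 to 0.27, and Elovl5 at -0.21 did not pass (adjusted p = 0.258, edgeR), with 7362 genes higher and 3768 lower against 5554 and 5141 under TMM. Elovl1 stayed higher after ovariectomy with both.

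The castration effect compared Te GDX with Te Intact mice, and 3 of the 7 genes passed, 2 higher and 1 lower after GDX, where 63.3% of all tested genes did (33.4% higher and 29.9% lower). With library totals the same 3 passed, and 7306 genes were higher and 3208 lower against 5147 and 4611 under TMM, the median of all genes moving from 0.07 to 0.27. Elovl5 had 419 to 1271 CPM (median 526) after castration and 299 to 1569 CPM (median 917) in Intact mice, and 1 of 12 castrated mice lay above the Intact median. It fell by 0.65 (SE 0.15; adjusted p = 0.000327, edgeR). Scd2 had 4.41 to 26.2 CPM (median 14.7) and 3.95 to 16.4 CPM (median 6.90), a rise of 0.71 (SE 0.21; adjusted p = 0.00297, edgeR). Elovl1 rose by 0.27 (SE 0.12), from a median of 24.3 to one of 28.7 CPM, at the edge of the threshold (adjusted p = 0.0497, edgeR), and passed in only 13 of the 48 fits that left out 1 mouse. With 1 surrogate variable Elovl1 was at 0.12 (adjusted p = 0.143, edgeR). Elovl2 at -0.32 (adjusted p = 0.0673, edgeR), Fads1 at 0.13, Fads2 at 0.02 and Fads3 at 0.06 did not pass, and Elovl2 passed at -0.49 with 1 surrogate variable (adjusted p = 8.96e-05, edgeR). In the fit of 44 mice 2 of 7 passed, Elovl5 at -0.73 and Elovl2 at -0.48 (adjusted p = 0.000743 and 0.0304, edgeR), while Scd2 at 0.39 and Elovl1 at 0.12 did not (adjusted p = 0.185 and 0.514, edgeR). In that fit 3396 genes were higher and 3221 lower. It kept only mice 5 and 6 of XY Te Intact, and mouse 5 had the highest Scd2 of that group (16.4 CPM, group mean 8.68).

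**Figure D4:**
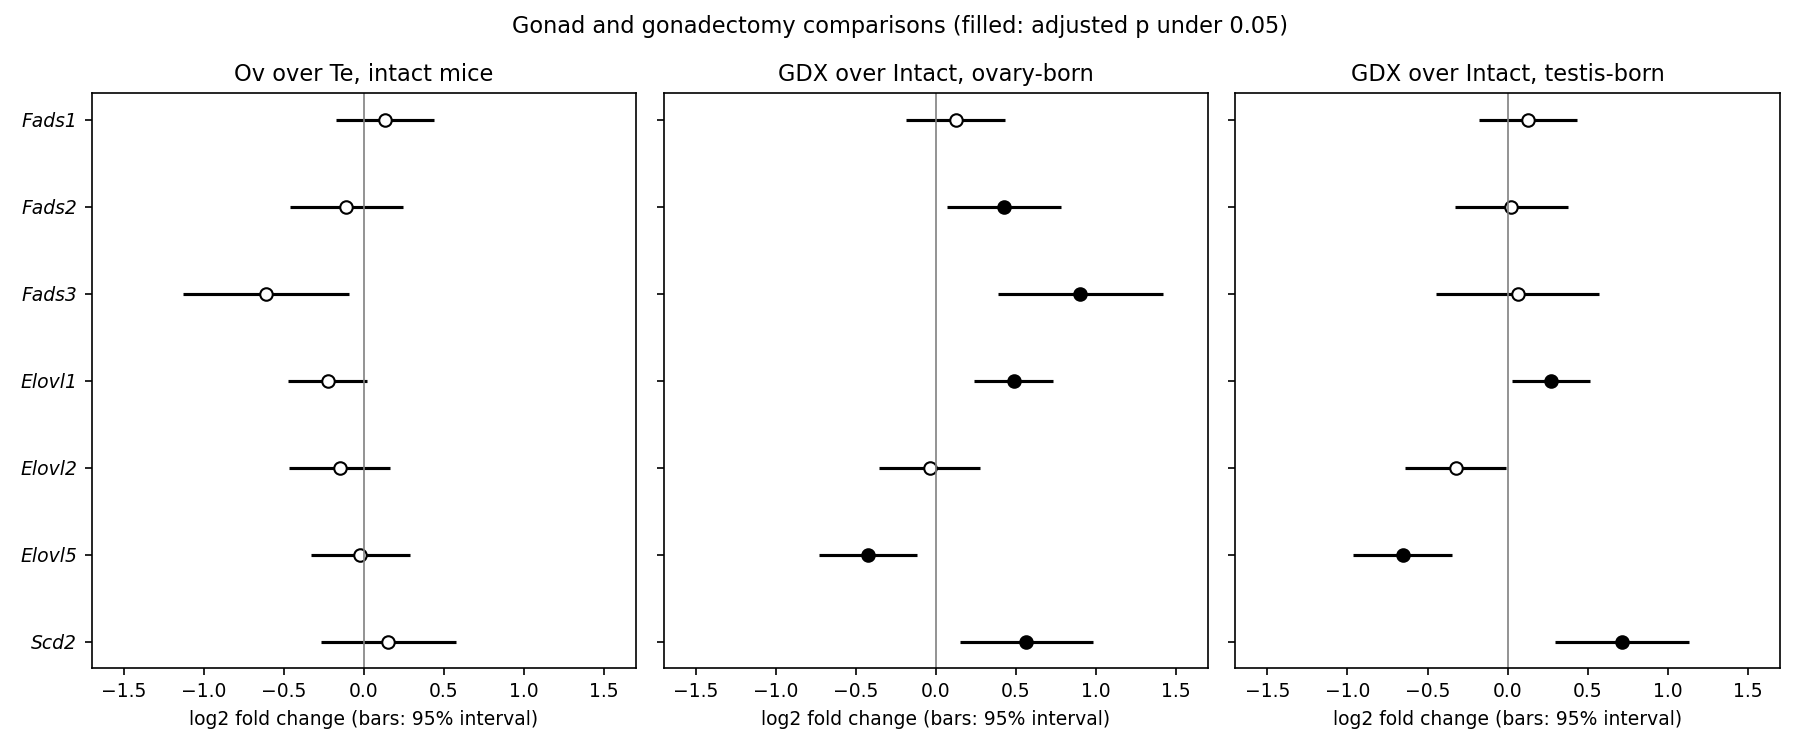
Log2 fold changes (points, filled where the adjusted p is under 0.05) with 95% intervals of the 7 genes for Ov over Te in Intact mice, for GDX over Intact in mice born with ovaries and for GDX over Intact in mice born with testes. No point is filled in the first panel, 5 are in the second and 3 in the third, with Elovl5 below 0 and Elovl1 and Scd2 above 0 in both GDX panels.

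The castration and ovariectomy effects use different mice, and both set 15 against 11 weeks of HFD, so their difference could be tested. It passed for 0 of the 7 genes, where 5.6% of all tested genes passed (1 of 7, Fads3, at an unadjusted p under 0.05, and 0 of 7 by DESeq2). For Fads3, the castration effect minus the ovariectomy effect was -0.84 (95% interval -1.57 to -0.12; adjusted p = 0.151, edgeR). With 44 mice it passed at -1.09 (adjusted p = 0.0463, edgeR), and so did 1813 genes with a higher and 1229 with a lower value. There, too, only mice 5 and 6 were left in XY Te Intact. Elovl3, by contrast, changed by -4.71 with castration (SE 0.28), from 57.2 to 186 CPM down to 1.11 to 21.6 CPM, and the difference of the 2 effects was -4.42 (SE 0.37; adjusted p = 1.37e-11, edgeR).

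Cell markers were counted for GDX too. Of all tested genes, 69.4% passed for ovariectomy and 63.3% for castration, so counts near these shares do not set a list apart. Of the stellate cell markers 3 of 6 were higher and 1 lower after ovariectomy (225 to 589.9 CPM in Ov GDX and 239 to 466 CPM in Ov Intact mice) and 3 higher after castration (158 to 525 CPM in Te GDX and 194 to 395 CPM in Te Intact mice). Of the macrophage markers 2 of 8 were higher and 2 lower after ovariectomy (170.1 to 740 and 236 to 763 CPM) and 4 higher and 1 lower after castration (121 to 981 and 179 to 552 CPM). Neutrophil markers were lower for 3 of 3 tested genes after ovariectomy (0.655 to 44.6 and 1.66 to 781 CPM) and for 2 of 3 after castration (0.0787 to 67.5 and 1.52 to 116 CPM). Of the lymphocyte markers 2 of 5 were lower after ovariectomy (13.8 to 207 and 15.5 to 148 CPM) and 2 higher after castration (11.2 to 309 and 11.4 to 81.6 CPM).

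The other marker lists were counted in the same way, beside the same shares of 69.4% and 63.3% of all tested genes. Of the hepatocyte markers 3 of 6 were higher and 2 lower after ovariectomy (74222 to 113266 CPM in Ov GDX and 73921 to 146110 CPM in Ov Intact mice) and 1 was higher and 1 lower after castration (82373 to 112471 CPM in Te GDX and 63816 to 144489 CPM in Te Intact mice). Of the cholangiocyte markers 3 of 5 were higher after ovariectomy (20.3 to 142 and 11.7 to 54.7 CPM) and 2 higher and 1 lower after castration (23.7 to 139.5 and 9.66 to 126 CPM). Of the endothelial markers 1 of 5 was higher and 1 lower after ovariectomy (120.2 to 301 and 161 to 219 CPM) and 2 higher and 1 lower after castration (126 to 319.6 and 131 to 237 CPM). Of the cell cycle genes 2 of 4 were lower in both effects (5.60 to 44.3 CPM in Ov GDX, 7.70 to 29.2 CPM in Ov Intact, 3.61 to 38.1 CPM in Te GDX and 6.38 to 27.8 CPM in Te Intact mice). Cidec, the tested adipocyte marker, did not pass after ovariectomy (whole list 2.27 to 50.8 and 2.73 to 20.8 CPM) and was at -1.96 after castration (0.998 to 39.5 and 6.20 to 98.3 CPM). In the fit of 44 mice the castration effect had 0 of 6 stellate cell, 1 of 8 macrophage, 0 of 5 lymphocyte and 0 of 5 cholangiocyte markers higher. Their part in the changes of the 7 genes was not tested.

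Beyond the 7 genes, 8 of the 10 elongation and electron transfer partners were lower after ovariectomy and 7 after castration, with 1 and 0 higher. The shares of all tested genes that passed were 69.4% for ovariectomy (36% higher and 33.4% lower) and 63.3% for castration (33.4% higher and 29.9% lower). Cyb5a, the cytochrome b5 that feeds electrons to desaturases, was at -1.23 and -0.88 in these 2 effects, the keto-reductase gene Hsd17b12 at -0.88 and -1.19, and the dehydratase genes Hacd2 and Hacd1 at -0.85 and -0.83 after ovariectomy and at -0.76 and -0.60 after castration. Of the 7 tested paralogs, 3 were higher and 1 lower after ovariectomy and 3 were higher and 3 lower after castration. Elovl6 was at 0.71 and 0.54, Fads6 at 0.54 and 0.33 and Degs1 at -0.36 and -0.29 in the 2 effects, and Scd1 was at -1.07 after castration. Of the 9 synthetases and acyltransferases, 7 were higher and 1 lower after ovariectomy, among them Mboat7 at 0.53, Acsl3 at 0.47, Lpcat3 at 0.46 and Acsl5 at -0.60, and 3 were higher and 3 lower after castration (Acsl3 at 0.52, Acsl5 at -0.44, Acsl4 at -0.36 and Slc27a5 at 0.33 with the largest values).

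Of the 8 peroxisomal genes, 2 were higher and 2 lower after ovariectomy (Ech1 at -0.97, Decr2 at -0.88, Hsd17b4 at 0.63 and Scp2 at 0.48) and 1 was higher and 6 lower after castration, with Decr2 at -0.76, Ech1 at -0.71, Abcd2 at 0.46 and Acaa1b at -0.46. Of the 14 regulators 10 were higher and 3 lower after ovariectomy, led by Nr1h3 at -0.88, Insig2 at -0.64, Srebf2 at 0.56 and Insig1 at -0.54, and 5 were higher and 4 lower after castration, led by Insig2 at -1.41, Insig1 at -0.72, Nfya at 0.57 and Pparg at 0.54. These counts stand beside the shares of 69.4% and 63.3% of all tested genes given above. With library totals, 10 of 14 regulators were higher and 2 lower after ovariectomy, and 7 were higher and 2 lower after castration. With 44 mice castration left 1 paralog higher and 3 lower, 1 synthetase or acyltransferase higher and 3 lower, 0 peroxisomal genes higher and 5 lower, and 2 regulators higher and 2 lower. Of the named castration values, those of Elovl6, Acsl3, Abcd2 and Pparg did not pass there.

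After each group's mean log2 CPM was subtracted, Fads1 and Fads2 deviated alike, with Pearson's r of 0.96 (Spearman's rho 0.94) over 48 mice and an adjusted p of 2.62e-05 for both (two-sided permutation test with 100000 shuffles within groups, whose smallest possible p is 1e-05, Benjamini-Hochberg over 21 pairs). Without the 2 mice farthest from the median of Fads1, r was again 0.96. The r was 0.80 for Fads3 with Fads1 and with Fads2 (rho 0.79 for both), 0.79 for Fads2 with Elovl5 (rho 0.72), 0.78 for Fads1 with Elovl5 (rho 0.68) and 0.77 for Fads1 with Elovl2 (rho 0.77), each with an adjusted p of 2.62e-05 for r and rho (permutation test), and without the 2 farthest mice r was 0.72 to 0.80 for these pairs. By Pearson's r, 20 of 21 pairs passed, all of them positive, and Elovl2 with Scd2 did not (r = 0.18, rho = 0.15, adjusted p = 0.232 and 0.315, permutation test). By Spearman's rho 18 of 21 passed, since Fads1 with Scd2 (adjusted p = 0.0502, permutation test) and Fads2 with Scd2 (adjusted p = 0.153, permutation test) also failed. The share of all gene pairs that would pass was not computed, so these counts describe the 7 genes and do not set them apart from others. The values of a pair come from the same libraries and share their depth and scaling.

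Among the 24 Intact mice 17 of 21 pairs passed by Pearson's r, and among the 24 GDX mice 11 of 21. Elovl1 with Fads1 had r = 0.79 (rho 0.77) in Intact mice (adjusted p = 6e-05 and 0.000336, permutation test) and r = -0.07 (rho -0.04) in GDX mice (adjusted p = 0.777 and 0.864, permutation test). Without the 2 mice farthest from the median of Fads1, these were 0.73 and -0.05. Elovl1 with Elovl2 had r = 0.78 (rho 0.77) in Intact and -0.28 (rho -0.21) in GDX mice. Elovl1 with Scd2 had r = 0.54 (rho 0.57) and 0.56 (rho 0.58), and Elovl1 with Elovl5 r = 0.43 (rho 0.36) and 0.35 (rho 0.31). Fads1 with Fads2 had r = 0.97 and 0.94 in the 2 cohorts. The difference between cohorts was not tested, and reads outside genes moved with the cohort as given above. Elovl1 also varied less within GDX groups (SD of 5.25% to 14.7% of the mean) than within Intact groups (20.5% to 32.3%). Unmapped reads spanned 7.58% to 9.92% in GDX and 6.99% to 16.5% in Intact libraries. The part of these spreads in r was not tested.

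**Figure D5:**
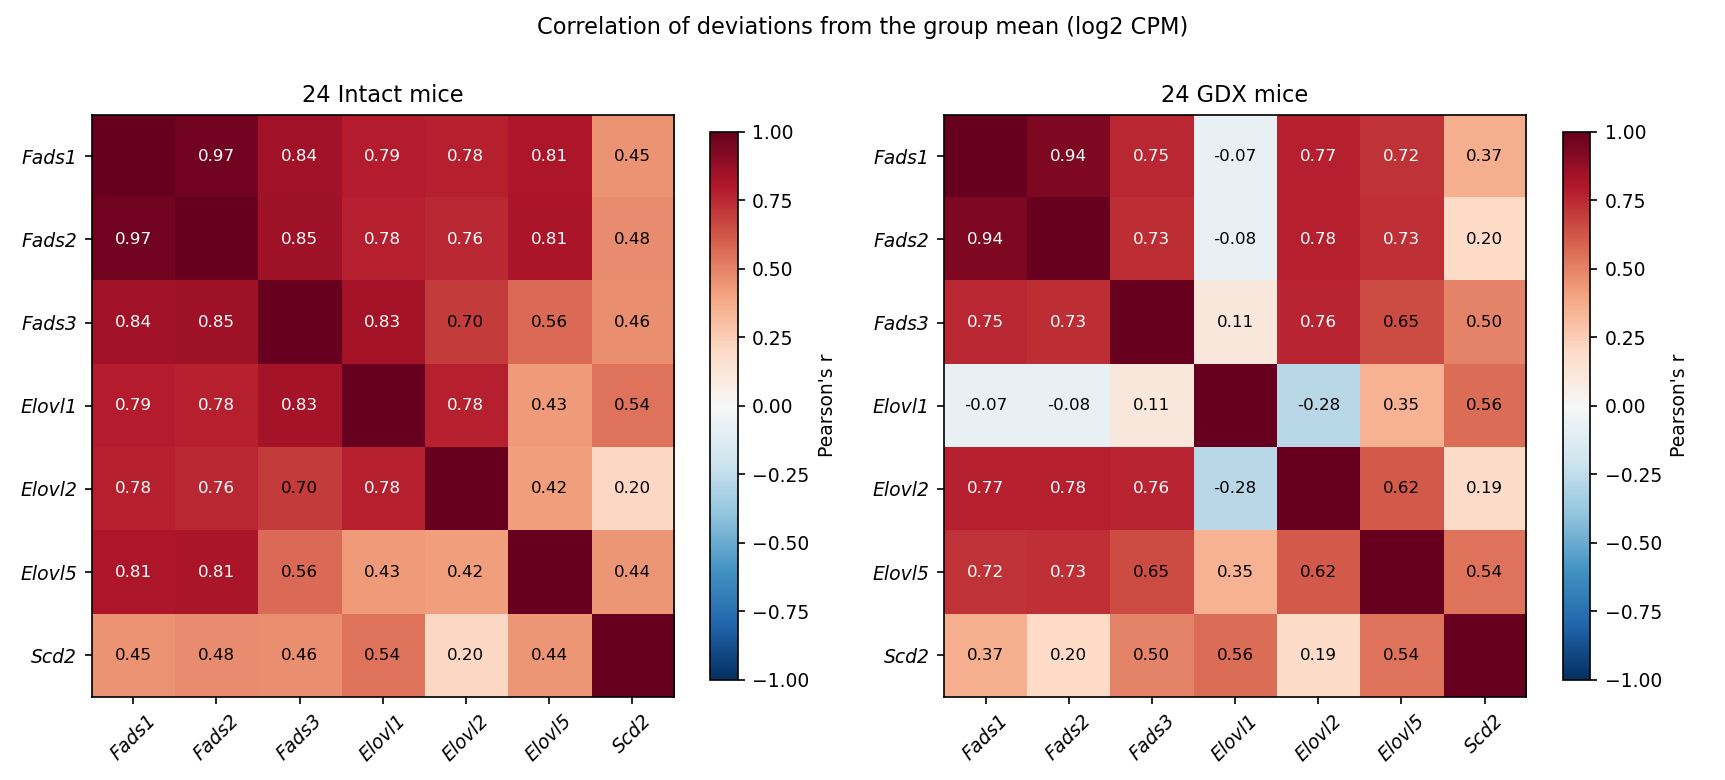
Pearson's r of deviations from the group mean in log2 CPM for each pair of the 7 genes, among 24 Intact (left) and 24 GDX mice (right), on a colour scale from -1 to 1. Fads1, Fads2, Fads3, Elovl2 and Elovl5 are positively correlated in both panels, and Elovl1 with Fads1 is 0.79 on the left and -0.07 on the right.

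The reported genes among those most like each member over the 48 mice, by Pearson's r of log2 CPM among 8272 genes with a symbol and a mean log2 CPM of at least 3, were distinct for nearly every member. They were Samm50 (r = 0.85), Ttc3 (0.85) and Dlat (0.83) for Fads1, Atp9a (0.87) and Ttc3 (0.87) for Fads2, and Gpam (0.90), which starts glycerolipid synthesis, and Cxadr (0.85) for Fads3. For Elovl2 they were Cpn1 (0.85), Sel1l3 (0.82) and Rassf8 (0.79), and for Elovl5 Aqp8 (0.86), 5730469M10Rik (0.86) and Vnn1 (0.85). For Elovl1 they were Lrp10 (0.92), Scamp2 (0.90) and Myo9b (0.90), and for Scd2 Epb4.1l2 (0.94), Tgfbi (0.92) and Lbh (0.92). With Ttc3 shared by Fads1 and Fads2, these were picked from the 3 highest of 8272 values per member and describe these 48 mice. These r include differences between groups. After group means were subtracted, r was 0.66 for Elovl5 with 5730469M10Rik and with Vnn1 and 0.72 for Fads3 with Cxadr. For the other named pairs it was 0.75 to 0.90.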

How the data were processed

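Liver RNA-seq counts of 48 FCG mice were used. The authors aligned reads to GRCm39 and deposited whole-number counts per gene, not normalized, made with STAR (version 2.7.10a; DESeq2 version 1.36.0 is also named in the submitters' processing notes). The annotation release, strand setting and trimming are not given in the sources used here. The 4 summary lines of unassigned reads held 25.5% to 42.3% of each library and were left out. The labels and the study's methods give different weeks of HFD, and those of the labels were used. Groups came from the genotype and treatment labels. Each library is 1 mouse, and the labels do not name litters or batches.

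A model with 1 mean for each of 8 groups was fitted to all 48 mice with edgeR (version 4.0.16, R version 4.3.3): TMM, filterByExpr, robust quasi-likelihood dispersions, Benjamini-Hochberg over 15414 genes, threshold adjusted p 0.05. The SE is the log2 fold change divided by the root of F. Log2 CPM used a prior count of 2. Symbols were matched to 31020 of 55414 identifiers. The 7 genes and all lists were chosen with earlier results of these data known. Named beside the 7 genes were, per list and effect, up to 4 genes with the largest change among those that passed in the 4 effects of chromosomes, gonads, castration and ovariectomy and in their differences, and up to 3 most alike genes per member; Srebf1, Scd1 in the chromosomal effect, Pparg in a caption, and a value of a listed gene beside its value in another effect were added after values were seen. Elovl4, Scd3, Scd4 and Acsl6 did not pass the filter. A few genes are not reported here and were left out of the list counts. Alternatives were RLE size factors, library totals, DESeq2 (version 1.42.0), filters of 1 count or of 10 counts in every mouse, 47 mice, 44 mice (without the 4 libraries with the most unmapped reads, chosen after seeing the data), compared groups alone, 1 surrogate variable (sva version 3.50.0), fold above 1.5, unadjusted p and leaving out each mouse. The fit was tested on simulated data. Permutation tests used scipy (version 1.17.1) in Python (version 3.11.15), tables pandas (version 2.3.3) and numpy (version 2.4.6), and plots matplotlib (version 3.10.9).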

Additional observations from a re-analysis of the deposited data

Results flagged for a closer look

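In 4 of 56 sets of 6 mice (7 genes in 8 groups) 1 mouse stood far from the others of its group, a gap that chance gives in about 1 of 20 sets. XY Te Intact mouse 5 had the highest Fads1 (994 CPM, next 561), Fads2 (1325 CPM, next 687) and Fads3 (27.1 CPM, next 14.1) of its group. XY Te GDX mouse 4 had the highest Fads3 of its group (32.1 CPM, next 17.6). The first 3 sets concern 1 mouse and genes that vary together. Without XY Te Intact mouse 5, 5 instead of 3 of the 7 genes passed in the comparison of XX with XY Intact mice, and without XY Te GDX mouse 4, Elovl2 passed in that of XX with XY GDX mice.

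The castration effect differed from the ovariectomy effect, by the test of the difference, for Elovl3 (-4.42), Cyb5b (-0.41), Acsl1 (-0.49), Slc27a2 (-0.39), Scp2 (-0.78), Acaa1b (-0.62), Hsd17b4 (-0.51), Insig2 (-0.77) and Nr1h3 (0.60, all log2 values). For Elovl3 the chromosomal effect also differed between GDX and Intact mice, by 1.81 on the log2 scale: in GDX mice it had 4.47 to 21.6 CPM with XX and 1.11 to 4.39 CPM with XY chromosomes, without overlap. Without XY Te Intact mice 1 to 4 the differences of Insig2 (-0.52) and of Elovl3 between GDX and Intact mice (1.63) did not pass. None of the 7 genes showed such a difference in all 48 mice.

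Reads outside genes, which enter no comparison, had a median of 10.1% in GDX and 4.24% in Intact libraries.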

How the results depend on the processing

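Of the 22 calls among the 7 genes, none changed direction under the alternatives, and 234 of 258 re-tests stayed past the threshold. Of the 48 values that did not pass, 532 of 561 re-tests stayed below it, and 40 of these re-tests changed sign without passing. Both totals include the unadjusted p and the fold threshold on the same fit, so part of them was settled in advance. An unadjusted p cannot undo a call, an added fold threshold cannot make one, and neither can change a sign. For the gonadal effect 1 gene passed with unadjusted p and 1 with 47 mice, without XX Te Intact mouse 5, which is absent from the study's panels of single genes, and 2 with 44 mice, without XY Te Intact mice 1 to 4 (chosen after seeing the data). For the ovariectomy effect 1 gene passed with a fold above 1.5 and 3 with 1 surrogate variable. For XX against XY in Intact mice 6 genes passed with unadjusted p, 6 with 1 surrogate variable, 6 with DESeq2, 5 with 47 mice, and 2 in the compared groups alone and with 44 mice. For the difference of castration and ovariectomy 1 passed with unadjusted p and 1 with 44 mice. Leaving out each mouse gave 0 to 1 genes for the gonadal effect, 6 for the chromosomal effect, 4 to 5 for ovariectomy, 2 to 4 for castration, 3 to 5 for XX against XY in Intact and 5 to 6 in GDX mice, and 0 for the other comparisons. Over all tested genes, counts differed from the reported ones by more than 1.5 times for the gonadal effect (3907; 6097 with unadjusted p, 1555 with a fold above 1.5, 1693 in the compared groups alone, 5994 with 44 mice), the chromosomal effect (5657; 1755 by fold), ovariectomy (10695; 5993 by fold), castration (9758; 5072 by fold), former gonad after GDX (14; 475 unadjusted, 7 with 10 counts in every mouse, 33 in the compared groups, 25 with DESeq2), XX against XY in Intact (1648; 3686 unadjusted, 950 by fold, 940 with 10 counts, 819 in the compared groups, 2561 with 1 surrogate variable) and GDX mice (5288; 2267 by fold), and the differences of castration and ovariectomy (863; 3610 unadjusted, 571 by fold, 506 with a filter of 1 count, 3042 with 44 mice) and of XX against XY by GDX (327; 2127 unadjusted, 545 with library totals, 661 with DESeq2, 5 with 44 mice). Library totals changed the split of higher and lower genes from 2171 and 1736 to 2146 and 1007 for the gonadal effect, from 658 and 990 to 281 and 864 for XX against XY in Intact mice, and from 62 and 265 to 38 and 507 for its difference by GDX. The cause of these changes was not tested, except that a fold threshold or an unadjusted p changes the rule itself. No paired analysis was possible because the labels give each mouse its own identifier and no replicate number shared between groups. Fads3 and Scd2 had larger SEs than the 4 abundant genes in the chromosomal effect (0.18 and 0.15 against 0.11 to 0.12). Elovl1, though not abundant, had the smallest SE of the 7 genes there (0.086).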
